A study of Mus musculus with 20 samples.

Results

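The genes described here take fatty acids into muscle, activate and oxidise them, or store and release them as triglyceride. They form a list of 43 gene names, chosen with earlier results of these data known. A gene counted as measured where a non-control probe carried its name on the array. Of the 43 genes, 41 had such a probe, out of 25539 genes measured in all, and each was read through its brightest probe over all arrays. Soleus, a small postural calf muscle rich in slow fibres, and gastrocnemius, a larger calf muscle rich in fast fibres, were taken from male ICR mice, an outbred strain, aged 6 months. The mice had spent 24 h in hind-limb suspension (HLS), hung by the tail at a head-down tilt of 45° so that the hind limbs bore no weight, or had moved freely. All mice were caged singly, had free access to food and water, and gave both muscles. The 4 groups, soleus HLS, soleus control, gastrocnemius HLS and gastrocnemius control, held 5 arrays each from 5 mice, so 10 mice gave 20 arrays. Whole muscle RNA was used, so that blood vessel, fat and immune cells within the muscle contributed to every value.

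Fatty acids reach muscle from albumin in the blood or from lipoproteins cut by lipoprotein lipase, cross the membrane with the help of CD36 and fatty acid transport proteins, and are bound in the cytosol by fatty acid binding protein. Acyl-CoA synthetases join them to coenzyme A. The acyl-CoA is then esterified into the triglyceride of lipid droplets, or enters mitochondria through the carnitine shuttle, whose first step is inhibited by malonyl-CoA. Inside, beta-oxidation shortens the chain and passes electrons to the respiratory chain through the electron-transferring flavoprotein. Many of these genes are known targets of the nuclear receptors PPARalpha and PPARdelta, which bind fatty acids, and slow oxidative muscle is known for a higher capacity to oxidise fat than fast muscle.

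A level below is the log2 intensity of a probe minus the 75th percentile of its array, and a difference is one of 2 group means of such levels, with its standard error (SE) from limma. Every difference is therefore relative to the array's 75th percentile. Spike-in RNA, added in equal amount to each sample, averaged 1.75 ± 0.20 on this scale for soleus HLS and 1.49 ± 0.04 for soleus control. It averaged 1.77 ± 0.13 for gastrocnemius HLS and 2.55 ± 0.08 for gastrocnemius control (SD, n = 5 each), and levels were not rescaled to it. All 41 probes were well above background on all 20 arrays and none was saturated, and the same 20 arrays all showed 6 skeletal muscle genes, among them Acta1, Ckm and Ttn. Soleus HLS replicate 1 stood apart: the mean level of 10 slow fibre genes was 4.93 there and 6.44 to 7.03 on the other soleus HLS arrays, and that of 10 fast fibre genes was 8.09 there and 5.68 to 6.94 on the others. The arrays lay on 6 slides read on 3 scan days. Slide 5 held 3 soleus HLS arrays and 1 soleus control array, slide 2 held 1 gastrocnemius HLS array and 3 gastrocnemius control arrays, and no slide held both muscles. Scan day 1 held all gastrocnemius control arrays and gastrocnemius HLS replicate 1. Scan day 3 held soleus HLS replicates 4 and 5, and scan day 2 held the rest, with all soleus controls.

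In soleus, RNA of fatty acid genes at several steps of the pathway was higher after suspension than in controls. Of the 41 genes, 9 rose and 0 fell (limma, adjusted p below 0.05), a share of 21.95%, where 2.39% of all genes rose and 3.51% fell. At an unadjusted p below 0.05, 16 were higher and 0 lower, where 9.43% of all genes were higher and 8.47% lower. The genes that rose were the transporter Slc27a1, the synthetases Acsl3 and Acsl6, the shuttle genes Cpt2 and Slc25a20, the carboxylase Acacb, the thioesterase Acot1, the lipase Pnpla2 and the peroxisomal gene Pex11a. The median difference over the 41 genes was 0.18, and 0.05 over all genes. In 35 of the 41 genes the difference was positive, as it was for 60.45% of all genes. In 8 of the 41 every HLS array lay above every control array, as it did for 2.2% of all genes. In whole muscle, a change in the number of cells of one type and a change in RNA per cell cannot be told apart. Suspension and slide are also largely confounded, since the soleus groups shared slide 5 alone, with 1 control array on it.

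**Figure D1:**
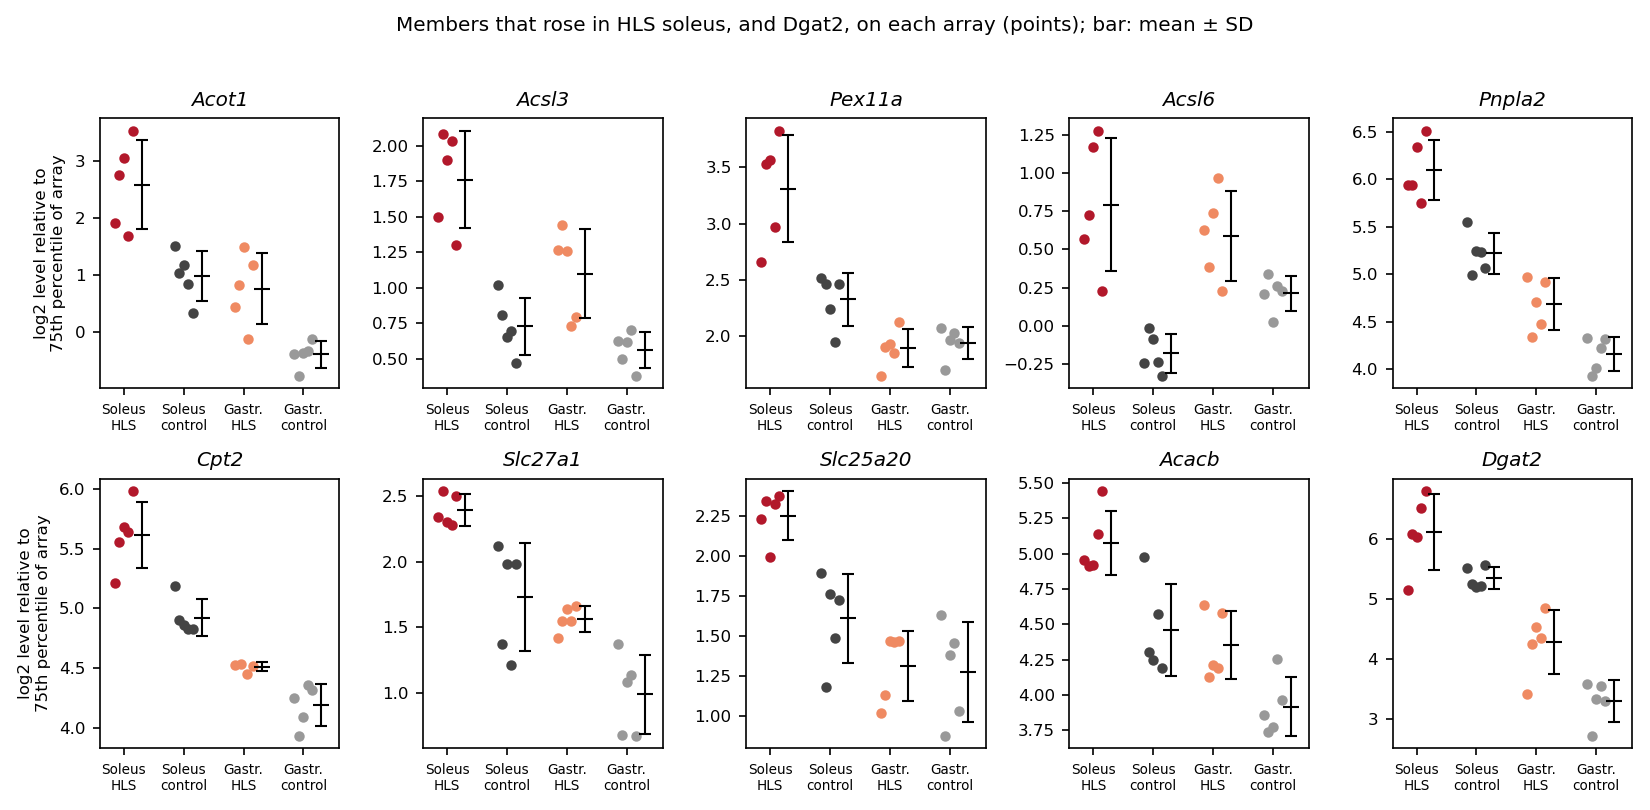
Levels (log2, after subtracting each array's 75th percentile) of the 9 genes that rose in soleus HLS, and of Dgat2, on each array. Points are arrays, 5 per group except 4 for Cpt2 in gastrocnemius HLS, and the bars are mean ± SD; in soleus the HLS points lie above all control points for 8 of the 9 genes, Acacb being the exception.

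Among the genes of uptake and binding, Slc27a1 alone passed the test in soleus. It encodes FATP1, a fatty acid transport protein with acyl-CoA synthetase activity. Its levels were 2.34, 2.54, 2.30, 2.28 and 2.50 in soleus HLS, against 2.12, 1.37, 1.98, 1.21 and 1.98 in soleus control. The HLS arrays lay close together above a wide spread of controls, with no overlap, and the difference was 0.66 ± 0.16 (adjusted p = 0.018). Without soleus control replicate 4, the lowest array, it was 0.53 (adjusted p = 0.06). In gastrocnemius the groups did not overlap either, at 1.56 ± 0.10 in HLS and 0.99 ± 0.31 in control (SD, n = 5 each), and the difference of 0.58 had an adjusted p of 0.061. The other members of the step did not pass in either muscle. Cd36, the main membrane carrier, differed by 0.06 in soleus (95% interval -0.17 to 0.28) and by 0.38 in gastrocnemius (adjusted p = 0.058). Lpl, the lipoprotein lipase, differed by -0.21 in soleus and 0.18 in gastrocnemius, and Fabp3, the muscle fatty acid binding protein, by -0.21 and -0.18 in the same order. A second, dimmer Lpl probe gave -0.47 in soleus (adjusted p = 0.055 with every probe tested on its own) and 0.09 in gastrocnemius.

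Activation to acyl-CoA gave a split between synthetases. Acsl3, an enzyme of the endoplasmic reticulum and of forming lipid droplets, had levels of 1.50, 2.08, 1.90, 2.03 and 1.30 in soleus HLS, against 1.02, 0.81, 0.66, 0.70 and 0.47 in soleus control. All HLS arrays were above all controls, and the difference was 1.03 ± 0.16, or 2.05-fold (adjusted p = 0.00035). Acsl6, which is best known for activating long polyunsaturated fatty acids in brain, had levels of 0.57, 0.72, 1.17, 1.28 and 0.23 in soleus HLS, against -0.24, -0.01, -0.08, -0.24 and -0.33 in soleus control. These groups were also separate, with HLS replicate 5 nearest to the controls, and the difference was 0.97 ± 0.17 (adjusted p = 0.00099). The 3 other Acsl6 probes, all dimmer, gave smaller differences of 0.18 to 0.33 that did not pass, so the call for Acsl6 rests on its brightest probe. Acsl1, the main synthetase of muscle, differed by 0.30 in soleus (adjusted p = 0.20) and 0.41 without soleus HLS replicate 1, where it passed (adjusted p = 0.027). Acsl5, of the mitochondrial outer membrane, differed by -0.19 (adjusted p = 0.44). In gastrocnemius none of the 4 synthetases passed, and Acsl3 came nearest at 0.54 (adjusted p = 0.079), without overlap between its groups.

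In the carnitine shuttle, 2 of 5 genes rose in soleus, Cpt2 and Slc25a20, which act after the regulated first step. Cpt2 encodes the inner-membrane transferase that returns the acyl group to coenzyme A. It had levels of 5.21, 5.55, 5.68, 5.64 and 5.99 in soleus HLS, against 5.19, 4.90, 4.86, 4.83 and 4.82 in soleus control. The lowest HLS array, replicate 1, and the highest control array, also replicate 1, almost touched, and the difference was 0.69 ± 0.12 (adjusted p = 0.0016). Slc25a20 encodes the carnitine-acylcarnitine translocase of the inner membrane. Its levels were 2.23, 2.34, 2.00, 2.32 and 2.37 in soleus HLS, against 1.89, 1.19, 1.77, 1.49 and 1.72 in soleus control. No HLS array reached down to the controls, and the difference was 0.64 ± 0.15 (adjusted p = 0.014). Cpt1b, the muscle form of the malonyl-CoA-sensitive first enzyme, differed by 0.13 (95% interval -0.11 to 0.37), and its liver form Cpt1a by -0.11 (-0.58 to 0.36). Crat, the carnitine acetyltransferase that buffers acetyl-CoA, differed by 0.42 (adjusted p = 0.18). In gastrocnemius the 5 shuttle genes differed by 0.04 to 0.34 and none passed. One Cpt2 spot, on gastrocnemius HLS replicate 1, was marked as uneven and left out of the fit.

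Malonyl-CoA is made by acetyl-CoA carboxylases and removed by malonyl-CoA decarboxylase. Acacb, the mitochondrial carboxylase whose product inhibits entry of fatty acids, had levels of 4.96, 4.92, 4.92, 5.14 and 5.45 in soleus HLS, against 4.98, 4.31, 4.25, 4.57 and 4.19 in soleus control. Soleus control replicate 1 lay among the HLS arrays, and the difference was 0.62 ± 0.16 (adjusted p = 0.021). It no longer passed without soleus control replicate 3 (0.56, adjusted p = 0.058), soleus control replicate 5 (0.55, adjusted p = 0.054) or soleus HLS replicate 5 (0.52, adjusted p = 0.07). A second, dimmer Acacb probe showed a difference of -0.05 (adjusted p = 0.90). The cytosolic carboxylase Acaca and the decarboxylase Mlycd differed by 0.18 and 0.14 and did not pass.

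Of the 11 beta-oxidation enzymes among the 41 genes, none passed with HLS in either muscle. Of all genes 2.39% rose and 3.51% fell in soleus, and 1.15% rose and 2% fell in gastrocnemius, so that count was near those shares. The 11 enzymes run from the acyl-CoA dehydrogenases Acadl, Acadm, Acads and Acadvl through the trifunctional protein subunits Hadha and Hadhb to the thiolase Acaa2. All differences in soleus were positive, from 0.09 for Eci1 and Hadh to 0.74 for Acads, where 60.45% of all genes were positive. Acads was also the most variable, at 1.37 ± 0.49 in soleus HLS and 0.63 ± 1.10 in soleus control (SD, n = 5 each). The lowest adjusted p in soleus was 0.10, for Decr1, the reductase that clears double bonds, with a difference of 0.42. In gastrocnemius the differences ran from -0.12 for Acaa2 to 0.41 for Acadl and Echs1. Eci2, a listed enzyme of this step outside the 41 genes, rose in soleus by 0.75 through a probe with an older name, as described below. The electron transfer genes moved less: Etfa, Etfb and Etfdh differed by 0.04, 0.04 and 0.18 in soleus and by 0.02, 0.08 and -0.19 in gastrocnemius. For Etfb the 95% interval in soleus was -0.13 to 0.21, the narrowest of the 41 genes.

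**Figure D2:**
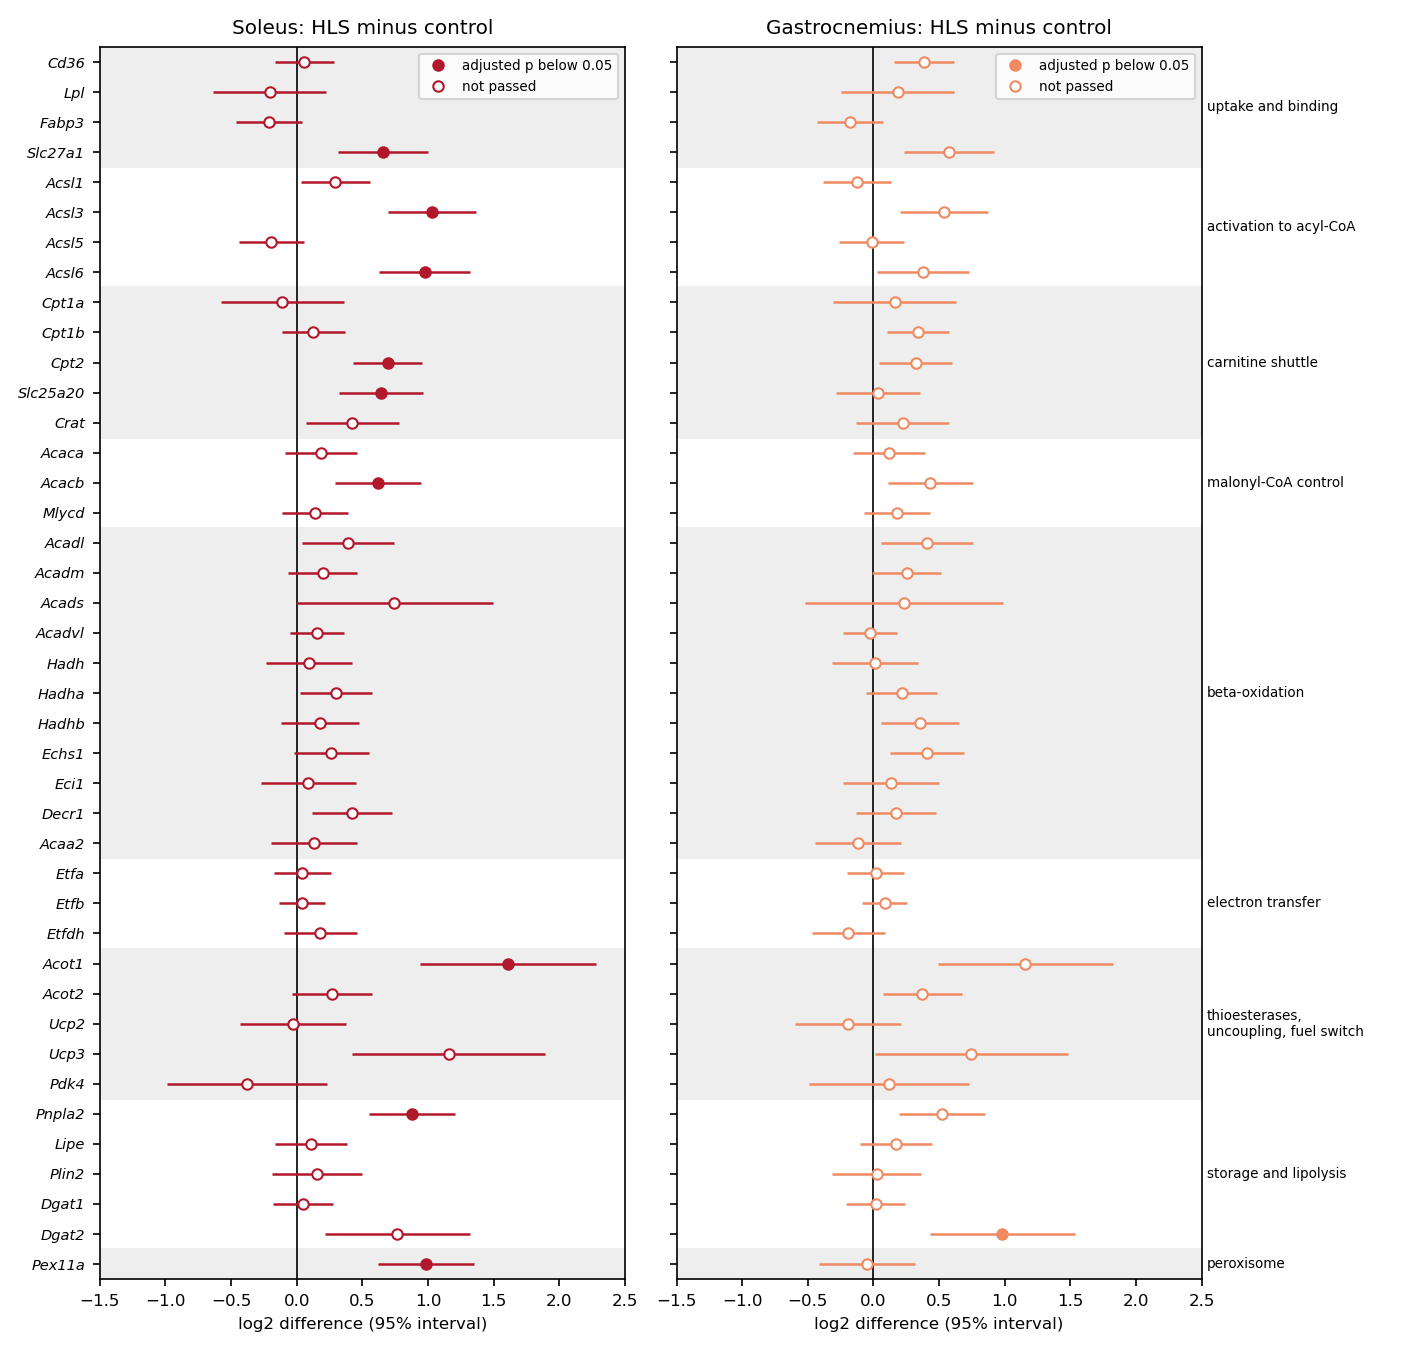
Difference in level (log2, HLS minus control) for each of the 41 genes in soleus (left) and gastrocnemius (right), ordered by role, with 95% intervals from limma. Filled points passed at an adjusted p below 0.05: 9 genes in soleus and Dgat2 in gastrocnemius, all on the positive side.

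The largest difference in soleus belonged to Acot1, which encodes a cytosolic thioesterase that splits acyl-CoA back into free fatty acid. Its levels were 1.92, 2.77, 3.05, 1.69 and 3.54 in soleus HLS, against 1.51, 1.05, 1.19, 0.85 and 0.33 in soleus control. The groups were separate although both were wide, and the difference was 1.61 ± 0.32, or 3.05-fold (adjusted p = 0.0033). In gastrocnemius Acot1 had levels of 0.45, 0.83, 1.51, -0.11 and 1.17 in HLS, against -0.38, -0.76, -0.35, -0.32 and -0.11 in control. HLS replicate 4 was level with the highest control array to the second decimal, the other HLS arrays were above all controls, and the difference of 1.16 ± 0.32 had an adjusted p of 0.053. It passed at 0.046 with quantile normalisation. Acot2, the mitochondrial paralogue, differed by 0.27 in soleus and 0.37 in gastrocnemius and did not pass. The 2 genes are near-identical in sequence, and whether a probe reads both was not tested.

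Uncoupling protein 3 and the fuel switch kinase did not pass. Ucp3, a mitochondrial carrier that is known to follow fatty acid supply in muscle, had levels of 0.39, -1.26, -0.15, 0.02 and -0.95 in soleus HLS, against -1.61, -1.74, -0.81, -2.26 and -1.35 in soleus control. The groups overlapped through HLS replicates 2 and 5, and the difference was 1.16 ± 0.35 (adjusted p = 0.057). In gastrocnemius the difference was 0.75 ± 0.35 (adjusted p = 0.33). Pdk4, which inhibits pyruvate dehydrogenase and so spares glucose, had levels of 5.59, 6.10, 5.43, 5.26 and 6.16 in soleus HLS, against 6.73, 5.44, 6.26, 6.53 and 5.46 in soleus control. Its groups overlapped widely, with a difference of -0.38 ± 0.29 (adjusted p = 0.56), and of 0.12 ± 0.29 in gastrocnemius. Ucp2, the widely expressed uncoupling protein, differed by -0.03 in soleus and -0.19 in gastrocnemius.

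In storage and lipolysis, the triglyceride lipase rose in soleus. Pnpla2 encodes ATGL, the enzyme of the first step of triglyceride breakdown. Its levels were 5.94, 5.94, 6.34, 5.75 and 6.51 in soleus HLS, against 5.55, 4.99, 5.25, 5.24 and 5.07 in soleus control. All HLS arrays were above the controls, and the difference was 0.88 ± 0.16, or 1.84-fold (adjusted p = 0.0013). A second Pnpla2 probe gave 1.28 (adjusted p = 0.0088 with every probe tested on its own). In gastrocnemius Pnpla2 averaged 4.68 ± 0.27 in HLS and 4.16 ± 0.18 in control (SD, n = 5 each), with no overlap and a difference of 0.52 (adjusted p = 0.077). Lipe, the hormone-sensitive lipase of the next step, differed by 0.11 in soleus and 0.17 in gastrocnemius. Plin2, a lipid droplet coat protein, differed by 0.15 and 0.02 in the same order.

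Dgat2, which joins the last fatty acid to diacylglycerol, was the one gene of the set that passed in gastrocnemius. Its levels there were 3.41, 4.24, 4.53, 4.35 and 4.85 in HLS, against 3.59, 2.72, 3.33, 3.55 and 3.29 in control. HLS replicate 1 lay among the controls, and the difference was 0.98 ± 0.26 (adjusted p = 0.046). The call was lost on leaving out any 1 of the other 9 gastrocnemius arrays, with adjusted p from 0.054 to 0.14, and stood at 0.012 without HLS replicate 1. On slide 2, where that HLS array and 3 controls lay together, the difference was 0.02. In soleus Dgat2 had levels of 5.14, 6.08, 6.03, 6.51 and 6.79 in HLS, against 5.51, 5.24, 5.20, 5.21 and 5.56 in control. There again HLS replicate 1 was the array below the controls, and the difference was 0.77 ± 0.26 (adjusted p = 0.10), or 1.01 without that array (adjusted p = 0.013). Both other Dgat2 probes passed in soleus when every probe was tested on its own, at 0.85 (adjusted p = 0.045) and 0.92 (adjusted p = 0.018). Dgat1, the other enzyme of this reaction, differed by 0.05 in soleus and 0.02 in gastrocnemius.

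Pex11a encodes a membrane protein that drives the elongation and division of peroxisomes, the organelles that shorten very long chains. Its levels were 2.66, 3.53, 3.56, 2.97 and 3.83 in soleus HLS, against 2.52, 2.46, 2.24, 1.95 and 2.46 in soleus control. The groups were separate, with HLS replicate 1 lowest, and the difference was 0.98 ± 0.18, or 1.98-fold (adjusted p = 0.0013). In gastrocnemius its levels were 1.65, 1.90, 1.93, 1.86 and 2.13 in HLS, against 2.07, 1.70, 1.96, 2.03 and 1.94 in control. These overlapped throughout, with a difference of -0.05 (95% interval -0.41 to 0.32). The soleus difference exceeded the gastrocnemius one by 1.03 (adjusted p = 0.30). Without soleus HLS replicate 1 this contrast was 1.19 and passed (adjusted p = 0.046).

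Across gastrocnemius as a whole, 1 of the 41 genes rose with HLS and 0 fell, where 1.15% of all genes rose and 2% fell. At an unadjusted p below 0.05, 15 were higher and 0 lower, where 6.79% of all genes were higher and 7.8% lower. The median difference was 0.18, against 0.01 over all genes, and 33 of the 41 genes were positive, where 52.38% of all genes were. Only HLS replicate 1 shared a slide or a scan day with gastrocnemius controls, so suspension is largely confounded with both in this muscle. Of the 9 genes that rose in soleus, 8 were positive in gastrocnemius, Pex11a being the exception, and none of the 9 passed there. When the soleus and gastrocnemius differences were compared directly, 0 of 41 genes passed in either direction (0% of all genes higher and 0.00783% lower). At an unadjusted p below 0.05, 5 genes had the larger difference in soleus and 1 in gastrocnemius, against 3.38% and 2.38% of all genes in the same order. A different response of the 2 muscles was therefore not shown for any of the 41 genes with all arrays in the fit.

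On slide 5, the one slide with both soleus groups, the difference ran from 0.41 for Slc27a1 to 2.25 for Acot1 among the 9 genes that rose. Its sign there is no support, since the groups of 8 of these genes do not overlap on any arrays. With scan day as a block, 6 of the 9 still passed (Acot1, Acsl3, Acsl6, Cpt2, Pex11a and Pnpla2), while Slc27a1, Slc25a20 and Acacb had adjusted p of 0.087, 0.096 and 0.17. The soleus difference in that fit rests on HLS replicates 1 to 3 against the controls, since scan day 3 held soleus HLS arrays alone. Of all 25539 genes, 300 rose and 471 fell in soleus with scan day as a block. With slide as a fixed block, where the soleus difference rests on slide 5, none of the 9 passed (adjusted p from 0.13 to 0.89). In that fit 6 of all genes rose and 17 fell in soleus. Of the regulators and further genes described below as passing in soleus, those run with these blocks all lost their call with slide as a block, and Ppara, Rxrb, Lpin1 and G0s2 lost it with scan day as well. In gastrocnemius all 6 calls run (Dgat2, Ppara, Mlxipl, Esrrb, Acss2 and Mgll) were lost with either block. In that muscle both blocks rest on HLS replicate 1, the 1 HLS array with controls on its slide or scan day. Ppargc1a and Esrra were not run with either block.

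Levels of fat, vessel and immune cell markers were set beside these results. In soleus HLS against soleus control, 0 of 15 adipocyte, 0 of 12 endothelial and 0 of 12 macrophage markers rose, and 1 fell, the adipocyte marker Slc36a2 (-0.59, adjusted p = 0.045). Of all genes 2.39% rose and 3.51% fell in soleus, so these counts were near those shares. The summed adipocyte signal, in multiples of the 75th percentile, was 197.5 to 458.8 in soleus HLS and 248.2 to 535.4 in soleus control. In gastrocnemius HLS 1 of 15 adipocyte markers rose, the lipid droplet gene Plin4 (0.74, adjusted p = 0.031), and the sums were 140.1 to 184.5 in HLS and 129.4 to 142.1 in control. Bright genes weigh most in such a sum, and Plin4 averaged 5.78 in gastrocnemius HLS and 5.04 in control. Over the 15 markers the gastrocnemius differences ran from -0.57 to 0.74, with a median of -0.09. The endothelial receptor Kdr fell there by 1.12 (adjusted p = 0.023), and no macrophage marker passed. In gastrocnemius 1.15% of all genes rose and 2% fell. Of 10 slow fibre markers 2 fell in soleus HLS, Casq2 (-1.31) and Myoz2 (-0.77), and 0 of 10 fast fibre markers rose. All 10 slow fibre differences in soleus were negative, from -1.31 to -0.10 (median -0.58), with soleus HLS replicate 1 included. All 10 fast fibre differences were positive, from 0.0035 to 1.16 (median 0.34), where 60.45% of all genes were positive. The part of the fibre markers in the soleus results was not tested. Without soleus HLS replicate 1, 11 genes rose, the 9 above with Acsl1 and Dgat2.

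The remaining listed genes, Eci2 and Plin5, had no probe under those names. A RefSeq accession ties 1 probe to each, under an older name, and these stand outside the counts above. Eci2, an isomerase for unsaturated fatty acids, had levels of 6.09, 6.31, 6.49, 6.14 and 6.31 in soleus HLS, against 5.85, 5.12, 5.58, 5.34 and 5.72 in soleus control. It rose by 0.75 ± 0.13 (adjusted p = 0.00094). Plin5, a coat protein of lipid droplets in oxidative tissue that binds ATGL, had levels of 4.13, 4.58, 4.33, 4.48 and 4.47 in soleus HLS, against 3.85, 3.93, 3.60, 3.69 and 3.65 in soleus control. It rose by 0.66 ± 0.13 (adjusted p = 0.0036), and neither gene's soleus groups overlapped. Both calls were lost with slide as a fixed block. In gastrocnemius Eci2 differed by 0.44 (adjusted p = 0.067) and Plin5 by 0.31 (adjusted p = 0.26).

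Calls among regulators of these genes were mostly in the other direction. Of 28 measured regulators, 2 rose and 5 fell in soleus HLS, and 0 rose and 4 fell in gastrocnemius HLS, where 2.39% of all genes rose and 3.51% fell in soleus and 1.15% rose and 2% fell in gastrocnemius. Ppara, which encodes PPARalpha, had levels of -1.29, -1.08, -1.21, -1.12 and -1.05 in soleus HLS, against 0.44, -0.11, 0.19, -1.53 and 0.84 in soleus control. Soleus control replicate 4 lay below every HLS array and the other 4 controls above them, and the difference was -1.12 ± 0.29 (adjusted p = 0.022). It did not pass without soleus control replicate 1, 3 or 5 (adjusted p of 0.066, 0.055 and 0.06). In gastrocnemius Ppara had levels of -1.60, -1.66, -1.75, -1.59 and -1.53 in HLS, against 0.27, -0.21, -0.24, -0.22 and -0.82 in control. These did not overlap, and the difference was -1.38 ± 0.29 (adjusted p = 0.0085), but blocking on scan day left -1.36 (adjusted p = 0.44).

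Mlxipl, the carbohydrate-responsive factor ChREBP, fell in both muscles, by 0.98 in soleus (adjusted p = 0.0013) and by 0.82 in gastrocnemius (adjusted p = 0.01). Nr4a1, an orphan nuclear receptor that responds to contraction and adrenergic signals, fell by 1.79 in soleus (adjusted p = 0.0043) and differed by -0.09 in gastrocnemius. The soleus and gastrocnemius differences of Nr4a1 were not shown to differ (adjusted p = 0.55). The orphan receptor Esrrb fell by 0.90 in soleus, where it was singled out after its values were seen, and by 0.64 in gastrocnemius, but the median over its probes, each tested on its own, did not pass (adjusted p of 0.20 in soleus and 0.50 in gastrocnemius). Its gastrocnemius call was also lost on leaving out 7 of the 10 arrays in turn. The remaining gene that fell in soleus was the coactivator Ppargc1a (PGC-1alpha), singled out after its values were seen. It differed by -0.87 (adjusted p = 0.021, lost without soleus control replicate 1 or HLS replicate 5) and by -0.73 in gastrocnemius (adjusted p = 0.084). Esrra, a partner of PGC-1alpha and likewise singled out, fell by 0.51 in gastrocnemius (adjusted p = 0.041), a call lost on leaving out any 1 of the 10 arrays. The rising regulators in soleus were Prkab2, an AMP-activated kinase subunit (1.02, adjusted p = 0.0064), and Rxrb, a partner receptor of PPARs (0.50, adjusted p = 0.033, lost on leaving out any of 6 arrays).

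**Figure D3:**
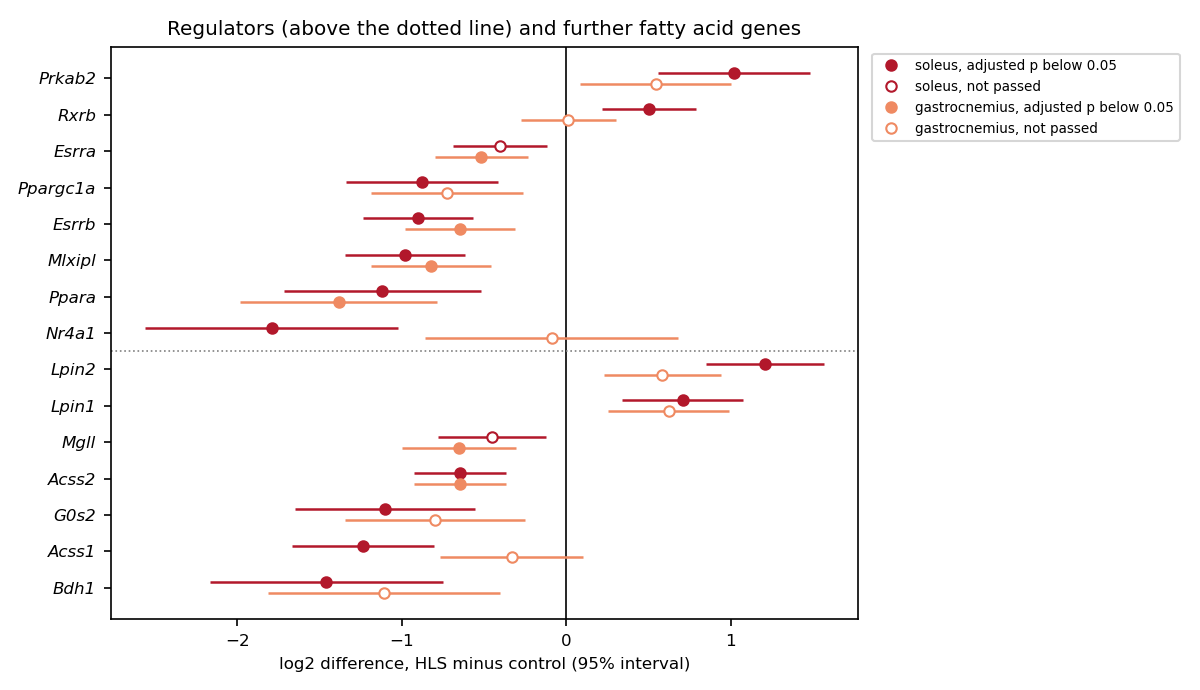
Difference in level (log2, HLS minus control) in soleus and gastrocnemius, with 95% intervals, for regulators and further fatty acid genes that passed in at least 1 muscle. Filled points passed at an adjusted p below 0.05; Ppara, Mlxipl, Esrrb and Acss2 are filled on the negative side in both muscles.

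A further 49 genes of fatty acid, ketone and acetate metabolism gave 2 that rose and 4 that fell in soleus HLS, and 0 that rose and 2 that fell in gastrocnemius HLS. Among all genes 2.39% rose and 3.51% fell in soleus, and 1.15% rose and 2% fell in gastrocnemius, so these counts lay within a few genes of the background. The rising genes were the lipins, phosphatases that make diacylglycerol and also act as nuclear cofactors. Lpin2 rose by 1.21 (adjusted p = 0.00015) by its brightest probe, while the median over its probes was 0.57 (adjusted p = 0.33). Lpin1 had levels of 3.70, 3.03, 3.23, 3.40 and 3.92 in soleus HLS, against 2.95, 2.74, 2.67, 2.29 and 3.08 in soleus control. HLS replicate 2 was below the highest control, and the rise was 0.71 (adjusted p = 0.018, lost without soleus control replicate 4 or HLS replicate 5, at 0.063 each). In gastrocnemius Lpin1 differed by 0.62 (adjusted p = 0.060) and Lpin2 by 0.58 (adjusted p = 0.071). The genes that fell in soleus were Bdh1, which interconverts ketone bodies (-1.46, adjusted p = 0.011), the mitochondrial acetate activator Acss1 (-1.23, adjusted p = 0.0008), G0s2, an inhibitor of ATGL (-1.10, adjusted p = 0.014), and the cytosolic acetate activator Acss2 (-0.64, adjusted p = 0.0047, singled out after its values were seen). For Bdh1 and Acss2 the median over all probes did not pass in soleus (adjusted p of 0.11 and 0.13). In gastrocnemius Acss2 fell by 0.65 (adjusted p = 0.0085), and so did Mgll, the monoglyceride lipase that completes triglyceride breakdown (-0.65, adjusted p = 0.035, lost on leaving out any of 7 arrays). None of 10 measured genes of the pyruvate dehydrogenase complex and its control passed with HLS in either muscle. Pdk2, a further inhibitory kinase, came nearest in soleus at 0.37 (adjusted p = 0.12).

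Without suspension, soleus carried more RNA of most fatty acid genes than gastrocnemius. Of the 41 genes 27 were higher in soleus controls and 1 was lower, where 12.6% of all genes were higher and 20.9% lower. The median difference, soleus minus gastrocnemius, was 0.57, against -0.06 over all genes. The largest was that of Dgat2, whose soleus control levels, given above, were all higher than its gastrocnemius control levels (2.05 ± 0.26, or 4.14-fold, adjusted p = 1.5e-05). All 4 uptake genes were higher: Cd36 averaged 3.86 ± 0.15 in soleus and 2.52 ± 0.20 in gastrocnemius, and Fabp3 8.22 ± 0.18 in soleus and 6.96 ± 0.24 in gastrocnemius (SD, n = 5 each). These gave 1.34 ± 0.11 for Cd36 (adjusted p = 2.7e-07) and 1.26 ± 0.12 for Fabp3 (adjusted p = 1.4e-06), while Lpl and Slc27a1 gave 1.15 and 0.75. Neither Cd36 nor Fabp3 had overlapping groups.

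The mitochondrial steps were also higher in soleus controls, though not every gene passed. All 3 electron transfer genes passed, at 0.99 for Etfdh, 0.67 for Etfb and 0.64 for Etfa. Of the 11 enzymes of beta-oxidation 8 passed, led by Acaa2 at 0.99 and Hadhb at 0.76, and Acads, Decr1 and Hadh did not. Of those 8 calls 2, Hadha (0.38, adjusted p = 0.028) and Eci1 (0.54, adjusted p = 0.022), were lost on leaving out any of 6 control arrays for Hadha and any of 3 for Eci1. In the shuttle Cpt1b (0.89) and Cpt2 (0.73) passed, while Slc25a20 (0.33, adjusted p = 0.10), Cpt1a and Crat did not. The 2 Cpt1a probes disagreed, at 0.37 (adjusted p = 0.22) for the brighter and -0.79 (adjusted p = 9.5e-06) for the dimmer.

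Among the remaining roles, Mlycd was higher in soleus by 0.99 and Acacb by 0.54. By brightest probes Acaca was the 1 gene lower in soleus, by -0.52 (adjusted p = 0.0049). None of the 3 dimmer Acaca probes passed. The brightest Ucp2 probe gave 0.28 (adjusted p = 0.27), but its dimmer probes gave -0.51 (adjusted p = 0.017) and -0.81 (adjusted p = 0.00051). The dimmer Acsl6 probes gave -0.38, -0.57 and -0.31 (adjusted p of 0.022, 0.00049 and 0.11). Acot1, Acot2 and Pdk4 were higher by 1.37, 1.02 and 1.20. Pnpla2 was higher by 1.06 through its brightest probe, but its second probe gave 0.04 (adjusted p = 0.93). Plin2 was higher by 0.78, and Lipe and Dgat1 did not pass. Of the synthetases, Acsl1 (0.90) and Acsl5 (0.44) were higher, and Acsl3 and Acsl6, the ones that rose with HLS, were not (0.17 and -0.39, adjusted p of 0.45 and 0.076). Of the further lists, 18 of 49 fatty acid genes were higher in soleus controls and 5 lower, led by Angptl4, an inhibitor of lipoprotein lipase, at 2.00 and Fabp5, another binding protein, at -0.82. Of the 28 regulators 5 were higher and 4 lower, shares near the 12.6% and 20.9% of all genes, with Esrrb at 1.41 and Prkab2 at -1.70 at the ends. Of the 10 pyruvate dehydrogenase genes Pdk1 was higher (0.89) and Pdp1 lower (-0.72).

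**Figure D4:**
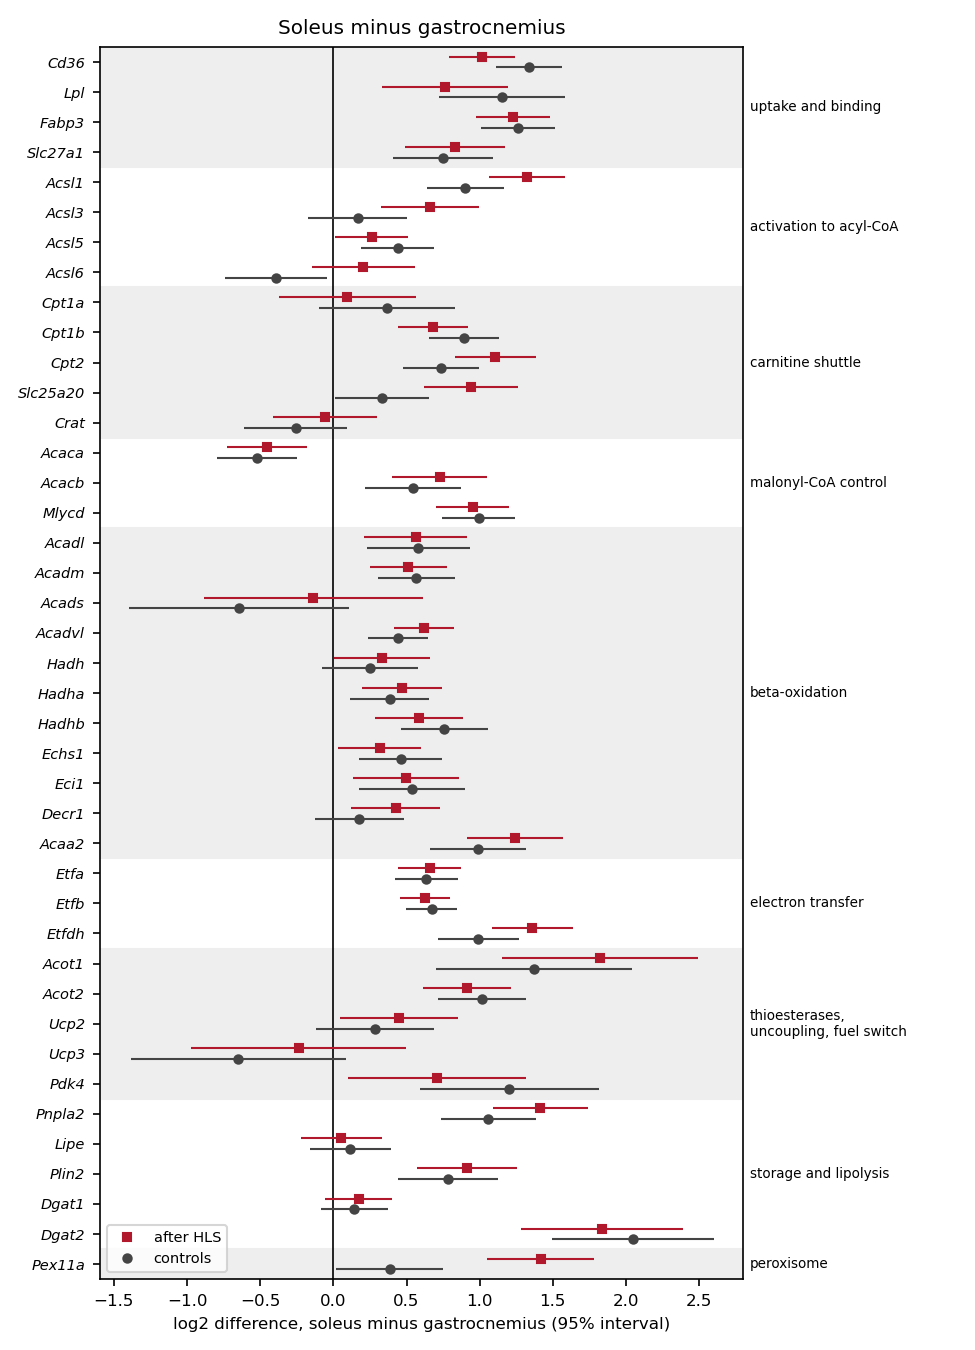
Difference in level (log2, soleus minus gastrocnemius) of the 41 genes after HLS (squares) and in controls (circles), with 95% intervals from limma. Most genes lie to the right in both sets; Acaca lies to the left in both, and Acsl6 moves from the left in controls to the right after HLS with intervals that overlap.

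The same contrast between the HLS arrays, from other mice, gave 28 higher genes and 1 lower, again Acaca, where 13.3% of all genes were higher and 17.7% lower. Of the 28 calls between controls, 25 passed here too with the same sign. Restricted to HLS arrays read on scan day 2, the counts were 28 and 1, with Cd36 at 1.03 and Dgat2 at 1.26. Of all 25539 genes, 1609 were higher and 3648 lower in that fit. With scan day as a block in the contrast between controls, the counts were 11 higher and 0 lower, and 17 of the 28 calls were lost. There 413 of the 25539 genes were higher and 992 lower. All gastrocnemius controls were read on scan day 1 and all soleus controls on scan day 2. Day and muscle could therefore be separated in that fit only through gastrocnemius HLS replicate 1, the 1 HLS array of scan day 1. Slide and muscle cannot be told apart, since no slide held both. Of 15 adipocyte markers 10 were higher in soleus controls and 1 lower, among them Cidec by 3.00, Adipoq by 2.52 and Plin1 by 2.50, all 3 well above background on all 20 arrays. The summed adipocyte signal was 248.2 to 535.4 in soleus controls and 129.4 to 142.1 in gastrocnemius controls. Dgat2, Cd36, Lpl, Pnpla2 and Plin2 are also expressed in fat cells, and the part of adipocyte RNA in their muscle differences was not tested. All 10 slow fibre markers were higher in soleus controls, 7 of 10 fast fibre markers were lower and 1 was higher. In the same contrast 5 of 12 endothelial markers were higher, and none of 12 macrophage markers passed. Of all genes 12.6% were higher in soleus controls and 20.9% lower.

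Promoters of the genes that rose in soleus were read for short motifs of receptors known to act on fatty acid genes. RefSeq's table (build GRCm38.p6, from 250 bases before to 50 after each gene start) held windows for 36 of the 43 listed genes and for all 9 that rose, which had 13 windows. On either strand, AGGTCA, the core motif of PPAR and RXR, was in 2 of those 13 windows and in 16.3% of all 32851 windows. TGTTCT, the core of the glucocorticoid receptor motif, was also in 2 of the 13, and in 19.0% of all. GTAAACA, a FoxO motif, was in none of the 13 and in 3.65% of all, and 2 AGGTCA motifs in a row with 1 base between were in none of the 13 and in 0.04% of all. The windows of 3 rising genes with a match are shown 5′ to 3′ on the gene's strand, with matches in capitals. They are Acsl6 (chr11:54303574-54303873, plus strand) and Acacb (chr5:114165268-114165567, plus strand), whose capitals TGACCT are AGGTCA on the opposite strand, and Acot1 (chr12:84009252-84009551, plus strand), whose capitals are TGTTCT.
Acsl6: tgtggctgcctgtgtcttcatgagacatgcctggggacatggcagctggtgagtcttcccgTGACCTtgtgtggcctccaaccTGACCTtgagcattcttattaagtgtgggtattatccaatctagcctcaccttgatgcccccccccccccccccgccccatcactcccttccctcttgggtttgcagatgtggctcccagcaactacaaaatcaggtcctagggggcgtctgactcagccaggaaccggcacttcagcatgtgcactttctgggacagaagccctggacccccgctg
Acacb: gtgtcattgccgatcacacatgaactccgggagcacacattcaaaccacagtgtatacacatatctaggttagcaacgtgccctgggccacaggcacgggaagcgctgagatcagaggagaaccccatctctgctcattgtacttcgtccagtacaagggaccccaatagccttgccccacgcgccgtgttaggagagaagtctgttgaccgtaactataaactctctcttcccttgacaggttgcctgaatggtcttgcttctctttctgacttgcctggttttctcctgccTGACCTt
Acot1: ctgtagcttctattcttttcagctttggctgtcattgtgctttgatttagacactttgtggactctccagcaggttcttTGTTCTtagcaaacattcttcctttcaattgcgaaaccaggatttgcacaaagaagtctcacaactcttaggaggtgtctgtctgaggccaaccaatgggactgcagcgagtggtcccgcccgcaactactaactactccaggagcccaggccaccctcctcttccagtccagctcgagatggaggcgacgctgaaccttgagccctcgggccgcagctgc
The Acsl6 window shown held 2 matches, at bases 62 to 67 and 84 to 89, ahead of the gene start, and the Acacb match at bases 294 to 299 lay after the start. Of the other 2 Acsl6 windows, not shown, 1 held TGTTCT. A match in these letters is not a measured binding site, and the share of windows with a match was near that of all windows.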

How the data were processed

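Total RNA, 600 ng per muscle, was labelled with Cy3 and hybridised to one-colour Agilent arrays, per the labels' protocols. The authors deposited linear spot intensity for each array, which the file headers credit to version 9.1.3.1 of Agilent's Feature Extraction, after background detrending and before any scaling across arrays. Their series table repeats this intensity to within 0.5% and served as an alternative. The normalisation and test used by the authors are not given in the sources used here.

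From the deposited intensity, uneven spots were dropped, log2 values were taken, each array's 75th percentile was subtracted and spots of 1 probe were averaged. Probes well above background on at least 4 of 5 arrays of a group were kept (37373 of 41174), and the brightest named each gene. The 75th percentile was 385.5 to 736.1, and 80.75% to 93.08% of probes were well above background; 20 arrays limit the precision. A means model of the 4 groups was fitted with limma 3.58.1 in R 4.3.3, two-sided, with Benjamini-Hochberg adjustment over 25539 genes and a threshold of 0.05, after tests on simulated data. Figures used matplotlib 3.10.9.

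Both muscles of a number came from 1 mouse, per the labels; deviations of such pairs from their group means correlated by -0.35 to 0.17 (median 0.03, 10 pairs), and the animal as a random block changed no count between muscles. Control and HLS arrays share only a number. Any listed gene could be named; further lists gave up to 3 passing genes at each end, or up to 2 of lowest p where none passed. The genes and lists were chosen with earlier results of these data known. Alternatives covered background, scaling, filter, probe choice, naming, slide, scan day, block and leaving out arrays.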

Additional observations from a re-analysis of the deposited data

Results flagged for a closer look

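In 9 of 164 groups of 5 arrays, 1 array lay far from the other 4, where chance alone gives 8.2 (1 in 20). In soleus HLS these were Cpt1a on replicate 5 (level -1.13, the others -0.38 to -0.09) and Acaa2 on replicate 1 (6.14, the others 6.42 to 6.50). In soleus control they were Cpt2 and Acadvl on replicate 1 (5.19 and 7.35, with others at 4.82 to 4.90 for Cpt2 and 6.87 to 7.00 for Acadvl) and Plin2 on replicate 2 (2.15, the others 2.56 to 2.64). In gastrocnemius HLS it was Lipe on replicate 3 (0.11, the others 0.28 to 0.33). In gastrocnemius control they were Fabp3 on replicate 2 (6.53, the others 7.00 to 7.14), and Crat (4.43, the others 4.86 to 4.96) and Acads (0.73, the others 1.31 to 1.52) on replicate 5. Of the genes that rose in soleus, this touches Cpt2 alone, whose outlying control array is its highest.

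Probes that carry older names gave signal for both listed genes that the gene names missed: Eci2 was higher by 0.75 and Plin5 by 0.66 in soleus HLS than in soleus control.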

How the results depend on the processing

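Of the calls rerun (23 in soleus, 6 in gastrocnemius and 28 between control muscles), 0 changed sign. Other named calls, such as Ppargc1a, Esrra, the cell markers and the further genes between muscles, were not rerun under these settings, apart from leaving out arrays for Ppargc1a and Esrra. With slide as a fixed block 0 of the 23 soleus and 0 of the 6 gastrocnemius calls were kept, and with scan day as a block 16 and 0. The count of rising genes in soleus, 9, was 6 to 10 under the other settings with all arrays, except 0 with slide as a fixed block, and 0 as well with that block and without soleus HLS replicate 1. It ranged from 8 to 11 on leaving out each array, with 0 falling throughout. The count in gastrocnemius, 1, depended on the setting: it was 6 with quantile normalisation, 4 with the replicate block and with slide as a random block, 3 on gastrocnemius arrays alone, 2 with normexp background, and 0 without the filter on dim probes, with scan day as a block or with slide as a fixed block. On leaving out each array it ranged from 0 to 2, with 0 falling. Genes differing in response between muscles numbered 0 in both directions under every setting with all arrays, and on leaving out each array 0 to 1 were larger in soleus and 0 larger in gastrocnemius. Between control muscles, the 27 higher genes became 11 and the 1 lower gene 0 with scan day as a block. The lower count was 2 with quantile normalisation and with every probe tested, and ranged from 1 to 1 on leaving out arrays, the higher one from 25 to 29. Slide as a fixed block could not be fitted between muscles. The cause of these moves was not tested. With the replicate block, where control and HLS numbers mark different mice, 10 genes rose in soleus and 4 in gastrocnemius (same-number deviations correlated by -0.31 to 0.17). The settings that joined slide or scan day with leaving out soleus HLS replicate 1, the HLS arrays between muscles, and the accession names for Eci2 and Plin5 were chosen after seeing the data. Limits are set by 5 arrays per group, 1 or 3 arrays per group where slides are shared, and probes that disagree, as for Acsl6, Acacb, Cpt1a, Ucp2 and Pnpla2.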

Other observations

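Over all 20 arrays, the genes whose levels were most like Pdk4 by Pearson's r were Phldb2 (0.85), Uhrf2 (0.84), Pkp4 (0.83) and Abhd1 (0.82), and 1 probe without a gene name (0.82). Among the listed genes, Fabp3 (0.80), Etfa (0.80) and Cd36 (0.78) came nearest to Pdk4. For Ucp3 the nearest were Mybbp1a (0.86), Tmtc4 (0.81), LOC433237 (0.79), Rpusd4 (0.79) and Zfp566 (0.79), and among the listed genes Acsl6 (0.71). These values describe 20 arrays that share 2 muscles and 6 slides, and carry no test.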
